A study of Rattus norvegicus with 26 samples.

Results

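Matrix metalloproteinases (MMPs), ADAMs, ADAMTS proteases, ADAMTS-like proteins, the tissue inhibitors of metalloproteinases (TIMPs), the MMP inhibitor *Reck* and the MMP inducer *Bsg* were followed by microarray while rat multipotent adult progenitor cells (rMAPCs) differentiated toward smooth muscle cells (SMCs). Genes were chosen by the name on the array, with the brightest probe taken for each gene, and a gene was kept if its probe was well above background, as called by the scanner software, on every array of at least 1 group. Of 73 genes that matched by name, among 35287 gene names on the array, 39 were kept, and they are called the members here. They were 12 of 23 MMPs, 10 of 23 ADAMs, 8 of 16 ADAMTS genes, 4 of 5 ADAMTS-like genes, 3 of 4 TIMPs, *Reck* and *Bsg*.

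The 26 arrays fell into 9 groups. The rMAPC line Cl19 was derived from bone marrow of a female Fischer rat with a labelled age of 3 week, and the line 3c3 from bone marrow of a female Fischer rat labelled E18. Each line is 1 clone that expresses Oct4, and each was sampled on d0, before the growth factors, and on d2, d4 and d6 in serum-free basal rMAPC medium with TGFβ1 and PDGF-BB, on 3 arrays per line and day. The control was RNA of primary rat aortic SMCs bought from a supplier, on 2 arrays, with no age, sex or strain given. The study's methods call the 3 arrays of a line and day biological replicates, and the labels do not say whether they came from separate cultures, so p-values measure the spread between these arrays.

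MMPs are secreted or membrane-bound zinc proteases made as inactive proenzymes, and between them they cleave collagens, proteoglycans and many non-matrix proteins. ADAMs are membrane proteins, of which the active ones shed the ectodomains of growth factors, cytokines and receptors, whereas ADAMTS proteases are secreted and process procollagens or cleave proteoglycans. TIMPs bind these proteases one to one and block them, and in the vessel wall the balance of the families is best known for its part in the migration of SMCs and the remodelling of their matrix.

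The promoters of 3 members that moved strongly are shown here, because *Mmp13* rose well above background at d6 in Cl19 while *Mmp15* and *Mmp25* rose by d2 in both lines. Each is the 250 bases before the gene's start in RefSeq on rat GRCr8, 5′ to 3′ on the gene's strand. Capitals in *Mmp13* mark an AP-1 motif (TGANTCA), which AP-1 factors such as Fos and Jun recognise, at positions −66 to −60 and a TATA box (TATAAA) at −47 to −42. Capitals in *Mmp15* mark a GC box (GGGCGG) read on the opposite strand at −137 to −132, and capitals in *Mmp25* mark a GC box at −108 to −103.
Mmp13 promoter, chr8:12782579-12782828, plus strand: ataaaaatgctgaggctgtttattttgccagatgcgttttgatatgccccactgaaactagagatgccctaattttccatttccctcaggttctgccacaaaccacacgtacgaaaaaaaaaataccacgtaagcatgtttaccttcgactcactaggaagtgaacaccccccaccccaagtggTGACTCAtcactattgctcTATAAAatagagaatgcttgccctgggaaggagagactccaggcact
Mmp15 promoter, chr19:9691001-9691250, minus strand: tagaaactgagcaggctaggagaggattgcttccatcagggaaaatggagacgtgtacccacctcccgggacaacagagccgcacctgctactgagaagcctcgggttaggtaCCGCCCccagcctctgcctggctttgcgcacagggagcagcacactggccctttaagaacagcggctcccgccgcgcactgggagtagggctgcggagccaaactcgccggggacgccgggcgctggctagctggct
Mmp25 promoter, chr10:13180504-13180753, minus strand: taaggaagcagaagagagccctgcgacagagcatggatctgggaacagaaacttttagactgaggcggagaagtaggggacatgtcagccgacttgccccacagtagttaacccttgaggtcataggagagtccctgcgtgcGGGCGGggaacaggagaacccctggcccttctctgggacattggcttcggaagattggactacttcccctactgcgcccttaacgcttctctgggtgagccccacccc
Both strands were searched for each motif, in a window that matched 29 of the 39 members by symbol. The AP-1 motif was found in 6.34% of 33469 RefSeq promoters and, among the members, in *Mmp13* and *Adam19*. The TATA box was found in 12.9% of all promoters and in the members *Mmp13*, *Adamtsl2* and *Adamts7*. The GC box was found in 30.5% of all promoters and in 22 of the 29 members. The CArG box, the motif of serum response factor, was found in 1.5% of all promoters and in none of the 29. A match is a description of letters and not a site of binding.

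Values are log2 of the quantile-normalized Cy3 intensity of 1 probe, and a difference is a difference of group means on that scale with its standard error (SE). Adjusted p-values are those of limma over 24442 probes that passed the same background filter, with a threshold of 0.05, and "rose" and "fell" are used of differences past it. The share of probes well above background was 52.8 to 61.4% on the Cl19 arrays, 43.2 to 57.1% on the 3c3 arrays (43.2 to 51.8% on the slide of 3c3 replicate 3) and 43.6 and 44.5% on the primary arrays. The array labelled Cl19 d2 replicate 1 was closer to the 3c3 d2 arrays (root mean square log2 difference 0.38 to 0.54) than to the other Cl19 d2 arrays (0.88 and 0.92), and Cl19 d2 results that change without it are given with and without it. All groups shared 1 estimate of the spread per probe, so this array also entered the SE of the other comparisons. For comparisons that do not involve Cl19 d2, no fit left out this array alone. All 4 days of a replicate number lay on 1 slide of its line, so changes over time were within slides, while the lines and the primary RNA each had slides and a scan day of their own, so that line and scan day cannot be told apart in a comparison of levels. In these bulk samples, fewer cells of a type and less RNA per cell cannot be told apart. Markers were checked in the same data: 5 of 6 measured smooth muscle markers rose by d6 in each line (*Tagln*, which encodes SM22α, by 6.54 in Cl19 and 5.95 in 3c3), while the sixth, *Myocd*, differed by 0.05 in Cl19 and fell by 1.20 in 3c3. Of 6 rMAPC markers, 5 fell in Cl19 and 4 in 3c3 (*Pou5f1*, which encodes Oct4, by 9.15 and 4.11), *Gata4* differed by −0.48 in 3c3, and *Foxa2* rose by 0.66 and 0.50. All 4 measured epithelial markers also rose by d6 in both lines (median differences 2.00 in Cl19 and 3.11 in 3c3), beside 22.0% and 19.7% of all probes.

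By d6 the membrane-type MMPs *Mmp14*, *Mmp15* and *Mmp25*, the sheddases *Adam8* and *Adam9* and the procollagen N-proteinase *Adamts3* had risen in both lines, while *Timp1*, the catalytically inactive *Adam23*, and *Adam15* and *Adam33* had fallen in both. The median member differed from d0 by 0.54 in Cl19 and 0.45 in 3c3, beside −0.20 and −0.21 over all probes tested. In Cl19, 28 of 39 members differed between d0 and d6, of 52.2% of all probes. Of these, 18 rose (22.0% of all probes) and 10 fell (30.3%). In 3c3, 24 of 39 differed (48.2% of all probes), with 15 higher (19.7%) and 9 lower (28.6%). Among members well above background on all arrays of both groups, 22 of 27 differed in Cl19 (52.1% of all such probes) and 17 of 24 in 3c3 (53.2%). Within their line, all 28 and all 24 moved the same way on each of the 3 slides, although the *Adamts5* difference on 1 slide was 0.01, at the bottom of the scale. These members were called on the same arrays, so this agreement was largely set by the selection and is no further support.

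Both lines together gave 12 members that rose in each: *Mmp11*, *Mmp14*, *Mmp15*, *Mmp23*, *Mmp25*, *Mmp28*, *Adam8*, *Adam9*, *Adamts3*, *Adamtsl4*, *Adamtsl5* and *Bsg*. Those that fell in each numbered 7: *Adam4*, *Adam10*, *Adam15*, *Adam23*, *Adam33*, *Adamts2* and *Timp1*. Past the threshold in Cl19 alone were 6 higher (*Mmp13*, *Adamts5*, *Adamts15*, *Adamtsl2*, *Reck* and *Timp3*) and 3 lower (*Adamts7*, *Adamts9* and *Timp2*). Past it in 3c3 alone were 3 higher (*Mmp24*, *Adam17* and *Adam19*) and 2 lower (*Adamtsl3* and *Mmp19*). The remaining 6 (*Mmp1b*, *Mmp2*, *Mmp16*, *Adam1a*, *Adamts8* and *Adamts12*) passed in neither, and no member moved past the threshold in opposite directions. These joint counts were not made over all probes, so the overlap of the lines is not read as particular to the members. Without the slide of 3c3 replicate 3, 20 members differed in 3c3 (15 higher, 5 lower), and *Adam10*, *Adam15*, *Adam17*, *Adam33* and *Mmp19* no longer passed. Here and below, the share of all probes past the threshold is not given for fits with arrays left out. A call lost or gained in such a fit is not read as particular to the members.

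**Figure D1:**
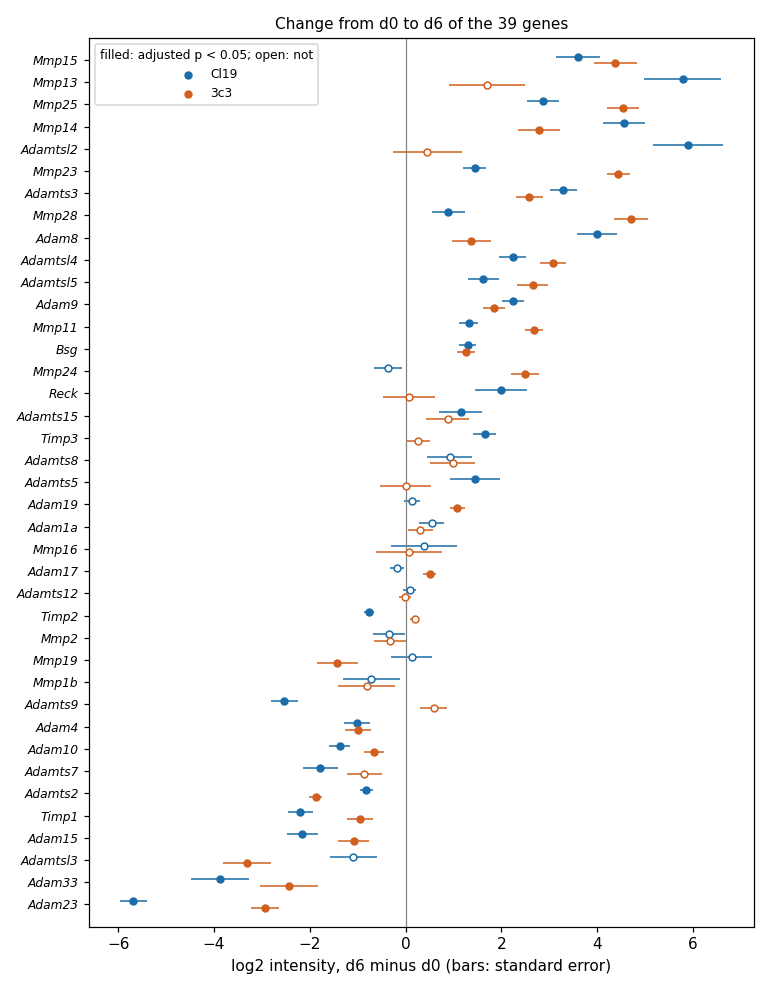
Change from d0 to d6 of the 39 members in Cl19 and 3c3. The horizontal axis is the log2 difference, points are estimates with their SE as bars (3 arrays against 3), and filled points have an adjusted p below 0.05. In Cl19, 18 filled points lie to the right of 0 and 10 to the left, and in 3c3 15 to the right and 9 to the left.

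Part of this change was already present on d2, when 15 members differed from d0 in Cl19 (22.6% of all probes), 9 higher (11.2%) and 6 lower (11.5%). In 3c3, 19 differed (19.1%), 14 higher (9.80%) and 5 lower (9.27%). Without the doubted Cl19 d2 array 14 members differed in Cl19, with *Adam8* and *Adam33* lost and *Adamts9* gained, and without the slide of 3c3 replicate 3 14 differed in 3c3.

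The membrane-type MMPs are tethered to the cell surface, and 5 of the 6 on the array were members. Of these, 3 rose by d6 in Cl19 and 4 in 3c3, beside 22.0% and 19.7% of all probes, and none fell. *Mmp14* encodes MT1-MMP, a collagenase of the cell surface that activates pro-MMP2 together with TIMP2. In Cl19 it read 8.17, 8.0 and 7.90 on d0, 9.62, 11.73 and 11.24 on d2, 10.68, 12.57 and 11.72 on d4, and 12.29, 12.75 and 12.70 on d6. The 3c3 arrays read 7.85, 8.08 and 8.03 on d0, 9.92, 9.54 and 9.53 on d2, 10.21, 9.55 and 9.71 on d4, and 11.39, 10.69 and 10.24 on d6. Every array from d2 on lay above every d0 array of its line, and the d6 arrays of Cl19 lay above those of 3c3. The d6 rise was 4.56 (SE 0.44, 23.5-fold, adjusted p = 6.1e-08) in Cl19 and 2.79 (SE 0.44, 6.9-fold, adjusted p = 3.68e-05) in 3c3. The d2 rise of 2.84 in Cl19 was 3.46 without the doubted array, and that of 1.68 in 3c3 (adjusted p = 0.0108) was 1.76 with an adjusted p of 0.0707 without the slide of 3c3 replicate 3. Its probe lies at 32503012 to 32503071 of chromosome 15 on rat build rn4, the build of the array design.

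*Mmp15*, another transmembrane MMP, was dim on d0 and bright on d2 in both lines. Cl19 read 3.33, 2.75 and 3.78 on d0, 6.41, 7.77 and 7.61 on d2, 7.37, 6.81 and 7.26 on d4, and 7.11, 6.42 and 7.11 on d6. Arrays of 3c3 read 1.13, 1.29 and 2.70 on d0, none well above background, 7.02, 5.86 and 6.34 on d2, 6.13, 4.82 and 5.57 on d4, and 6.62, 5.43 and 6.20 on d6. No later array overlapped the d0 arrays of its line. The rise by d2 was 3.97 (SE 0.46, adjusted p = 3.26e-06) in Cl19, and at d6 it was 3.59 (12-fold, adjusted p = 2.05e-06). Since 3c3 had only a bound on d0, its rise was at least 13.3-fold on d2 and at least 10.7-fold on d6 (adjusted p = 2.95e-07).

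*Mmp25*, which is held in the membrane by a lipid anchor and was first known from leukocytes, had its highest values on d2. The Cl19 arrays read 3.35, 2.64 and 3.77 on d0, 7.83, 7.89 and 8.05 on d2, 6.47, 6.54 and 6.34 on d4, and 5.72, 5.54 and 7.12 on d6. In 3c3 the values were 2.54, 3.20 and 3.17 on d0 (1 of 3 well above background), 8.28, 7.70 and 8.06 on d2, 7.59, 7.13 and 7.51 on d4, and 7.70, 7.15 and 7.68 on d6. All later arrays lay above d0, and the d6 arrays of 3c3 lay above those of Cl19. It rose 25.5-fold by d2 in Cl19 (4.67, SE 0.34, adjusted p = 1.06e-08) and by 5.04 in 3c3 (adjusted p = 4.87e-09). The d6 rise was 2.87 in Cl19 and 4.54 in 3c3, and the difference between them of −1.67 (SE 0.48, adjusted p = 0.0186) had an adjusted p of 0.0818 without the slide of 3c3 replicate 3. Both the *Mmp15* and the *Mmp25* probe lie on the minus strand on rn4, on chromosome 19 at 10128301 to 10128360 and on chromosome 10 at 12894783 to 12894842.

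*Mmp24*, a membrane-type MMP best known from neural tissue, moved in 3c3. There the arrays read 10.47, 9.60 and 9.65 on d0, 11.41, 10.96 and 11.04 on d2, 12.03, 12.09 and 11.97 on d4, and 12.53, 12.38 and 12.28 on d6. In Cl19 they read 11.09, 11.22 and 11.08 on d0 and 10.74, 11.04 and 10.47 on d6. The 3c3 arrays were lower than the Cl19 arrays on d0 and higher on d6. The rise in 3c3 was 2.49 (SE 0.29, 5.6-fold, adjusted p = 1.29e-06), Cl19 differed by −0.38 (adjusted p = 0.299), and the changes differed by −2.86 (SE 0.42, adjusted p = 6.37e-05). *Mmp16* stayed dim, with group means of 2.37 to 3.77 in the lines, and its d6 differences of 0.38 and 0.08 did not pass.

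*Mmp2*, gelatinase A, the best known target of MT1-MMP, was measured by a pair of probes that did not behave alike. The brighter probe, which the array annotation does not place on rn4, read 4.95, 4.69 and 5.49 on d0 and 4.68, 4.43 and 4.96 on d6 in Cl19. Values in 3c3 were 5.25, 4.73 and 5.53 on d0 and 4.79, 4.47 and 5.25 on d6. Its groups overlapped, and its differences of −0.35 (adjusted p = 0.398) and −0.33 (adjusted p = 0.433) did not pass, although the first did with the slide as a block (adjusted p = 0.0248). The second probe was looked at after its values were seen. It is placed on chromosome 19 at 15246221 to 15246280 and read 4.20, 3.92 and 3.94 on d0 and 7.64, 7.94 and 7.60 on d6 in Cl19. In 3c3 it read 2.75, 2.17 and 2.29 on d0 and 3.97, 1.86 and 3.42 on d6. By this probe *Mmp2* rose by 3.70 (SE 0.50, adjusted p = 3.66e-06) in Cl19, differed by 0.68 (adjusted p = 0.278) in 3c3, and the lines' changes differed by 3.02 (adjusted p = 0.00451). The other gelatinase, *Mmp9*, was no member, being well above background on 1 array of 26.

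*Mmp13*, collagenase-3, whose promoter with its AP-1 motif and TATA box is printed above, was below background on d0 and d2 in both lines. Cl19 then read 3.07, 2.14 and 3.49 on d4 and 5.23, 7.83 and 7.06 on d6, after 0.46, 0.94 and 1.37 on d0. The 3c3 arrays read 1.09, 0.38 and 0.54 on d0, 2.55, 5.90 and 5.30 on d4, and 1.22, 3.14 and 2.73 on d6. All 3 arrays were well above background on d4 and d6 in Cl19 and on d4 in 3c3, while on d6 in 3c3 1 of 3 was. In Cl19 it rose at least 20.3-fold by d6 (5.78, SE 0.80, adjusted p = 5.16e-06), 3c3 differed by 1.69 (adjusted p = 0.0875), and the changes differed by 4.09 (SE 1.13, adjusted p = 0.0148). Without the slide of 3c3 replicate 3 that difference was 4.33 with an adjusted p of 0.0528. On rn4 the probe lies on chromosome 8 at 4168554 to 4168613, in the gene cluster that also holds *Mmp1a*, *Mmp1b*, *Mmp3*, *Mmp7*, *Mmp8*, *Mmp10*, *Mmp12*, *Mmp20* and *Mmp27*. Of these neighbours *Mmp1b*, grouped here with the collagenases, was a member with line values of 1.59 to 4.36. Its d6 differences of −0.72 (adjusted p = 0.331) and −0.82 (adjusted p = 0.275) did not pass, but did with the slide as a block (adjusted p = 0.00377 and 0.00436).

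*Mmp11*, stromelysin-3, which furin activates inside the cell, rose in both lines, and from a lower start in 3c3. Cl19 read 5.38, 5.25 and 5.23 on d0, 5.09, 5.66 and 5.90 on d2, 6.17, 6.38 and 6.08 on d4, and 6.89, 6.46 and 6.45 on d6. Arrays of 3c3 read 3.76, 3.62 and 3.15 on d0, 5.18, 4.99 and 5.0 on d2, 6.03, 5.74 and 6.08 on d4, and 6.24, 6.35 and 5.98 on d6. The d0 arrays of 3c3 were below all others, and by d6 the lines lay within 1 log2 unit of each other. Its rise was 2.49-fold in Cl19 (1.32, SE 0.19, adjusted p = 1.18e-05) and 6.4-fold in 3c3 (2.68, adjusted p = 2.84e-09), a difference of −1.36 (SE 0.28, adjusted p = 0.00147). With normexp background correction that difference was −0.17 and did not pass (adjusted p = 0.373).

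*Mmp23*, a membrane MMP with a cysteine-rich array in place of the usual hemopexin domain, showed the same order. Cl19 read 7.66, 7.77 and 8.14 on d0 and 9.61, 9.55 and 8.73 on d6, whereas 3c3 read 6.48, 6.05 and 6.09 on d0 and 10.31, 11.01 and 10.62 on d6. The 3c3 arrays were the lower ones on d0 and the higher ones on d6, without overlap. It rose 2.71-fold in Cl19 (1.44, SE 0.24, adjusted p = 4.76e-05) and 21.7-fold in 3c3 (4.44, adjusted p = 6.1e-11), and the changes differed by −3.0 (SE 0.34, adjusted p = 4.67e-06).

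Epilysin, *Mmp28*, read 6.19, 5.95 and 5.98 on d0, 4.42, 4.97 and 5.59 on d4 and 6.37, 7.78 and 6.65 on d6 in Cl19. In 3c3 the values were 4.82, 4.35 and 4.42 on d0, 7.41, 6.64 and 7.58 on d4, and 9.01, 9.31 and 9.39 on d6. Again 3c3 began below Cl19 and ended above it, and on d4 Cl19 lay below its own d0. The rise was 26.1-fold in 3c3 (4.70, SE 0.35, adjusted p = 3.57e-09) and 1.86-fold in Cl19 (0.89, adjusted p = 0.0374, or 0.0875 with the slide as a block), and the changes differed by −3.81 (SE 0.49, adjusted p = 1.87e-05). *Mmp19*, the remaining MMP, was below background on all line arrays, with values of 0.33 to 2.64. Its d6 difference in 3c3 of −1.43 (adjusted p = 0.00917) is therefore between 2 groups below background and has no fold.

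**Figure D2:**
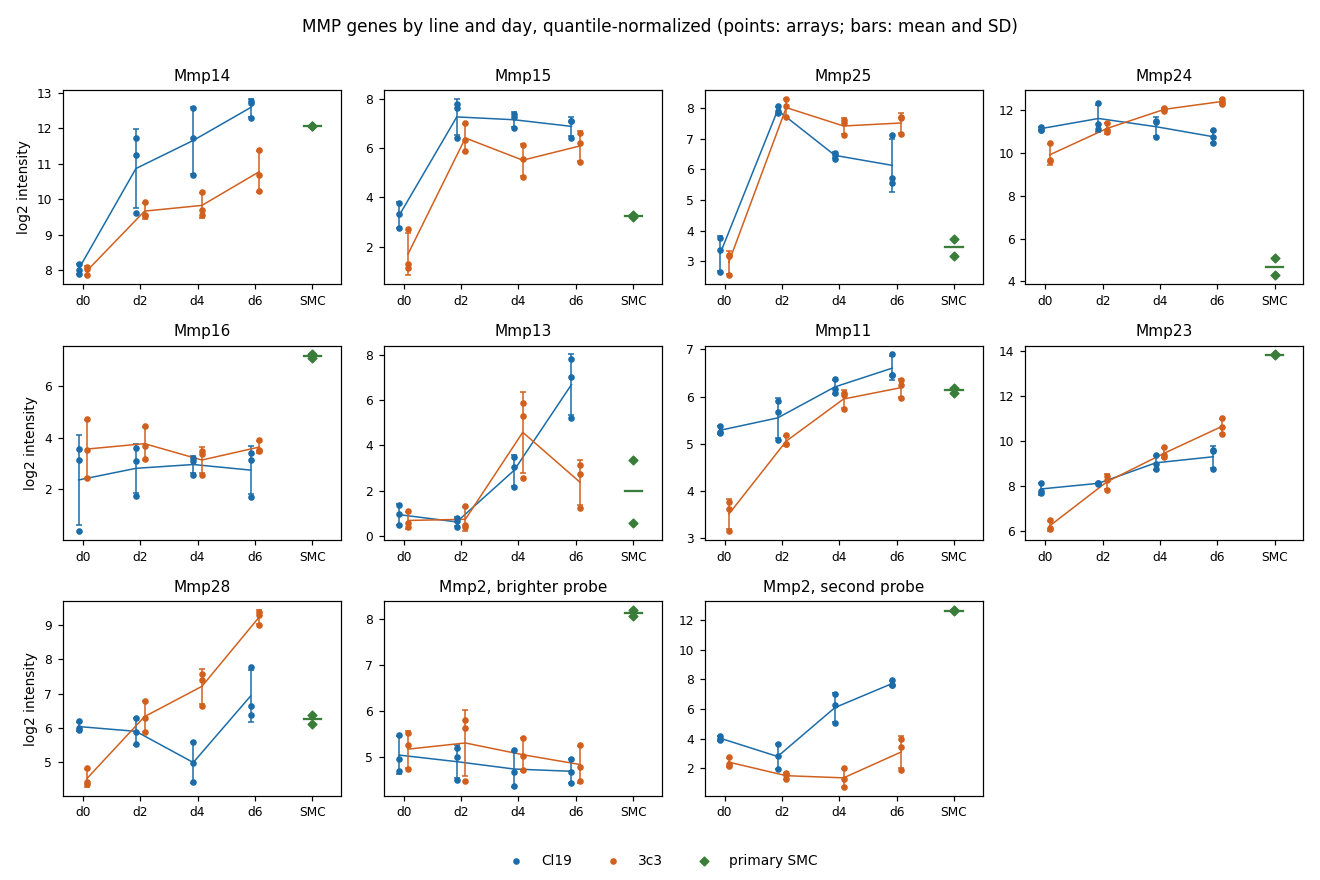
MMP members by day in Cl19, 3c3 and primary SMC. The vertical axis of each panel is the log2 quantile-normalized intensity of 1 probe on its own scale, points are arrays, bars give the mean and SD, and lines join the means of a line. *Mmp14* and *Mmp15* rise by d2 in both lines, *Mmp24*, *Mmp23* and *Mmp28* climb further in 3c3, and *Mmp13* and the second *Mmp2* probe climb further in Cl19.

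ADAM sheddases gave 7 members of 9 genes on the array, of which 2 rose and 3 fell by d6 in Cl19, and 4 rose and 3 fell in 3c3, beside 52.2% and 48.2% of all probes that differed. *Adam8*, a protease of leukocytes that sheds adhesion molecules, rose in both lines. Cl19 read 7.50, 7.54 and 7.75 on d0, 6.22, 6.41 and 6.68 on d2, 8.66, 10.67 and 10.36 on d4, and 11.19, 12.50 and 11.09 on d6. Values in 3c3 were 6.29, 5.90 and 6.29 on d0, 6.41, 5.97 and 6.19 on d2, 6.55, 6.50 and 6.75 on d4, and 8.11, 7.07 and 7.40 on d6. In Cl19 the d2 arrays were the lowest and the d6 arrays the highest, and in 3c3 the d6 arrays stood above the rest. The d6 rise was 15.9-fold in Cl19 (3.99, SE 0.41, adjusted p = 1.28e-07) and 2.58-fold in 3c3 (1.37, adjusted p = 0.00953), and the changes differed by 2.63 (SE 0.58, adjusted p = 0.003). The d2 fall in Cl19 of 1.16 had an adjusted p of 0.0473, and of 0.113 without the doubted array.

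Since *Adam8* is used by leukocytes, the leukocyte markers are given beside it. Of 5 leukocyte markers measured, 1 rose and 1 fell in Cl19 and 2 rose in 3c3. The log2 of their summed signal was 7.74 to 8.16 on d0 and 7.75 to 8.09 on d6 in Cl19, and 7.82 to 8.10 and 9.74 to 11.03 in 3c3. The defining marker *Ptprc*, which encodes CD45, was detected well above background on 1 of 3 Cl19 d6 arrays, 0 of 3 3c3 d6 arrays and no d0 array. *Lyz2*, which encodes lysozyme, rose by 4.74 in Cl19 and 4.06 in 3c3, and *Csf1r*, the receptor of macrophage colony-stimulating factor, rose by 6.24 in 3c3. The part of these markers in the *Adam8* result was not tested.

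*Adam9*, a widely expressed sheddase, rose by d6 to like levels in both lines. It read 6.12, 6.08 and 6.01 on d0, 6.27, 6.52 and 6.37 on d2, 7.43, 7.72 and 7.91 on d4, and 8.24, 8.37 and 8.32 on d6 in Cl19. In 3c3 it read 6.36, 5.83 and 5.92 on d0, 6.48, 6.11 and 6.48 on d2, 6.91, 6.17 and 6.62 on d4, and 8.46, 7.55 and 7.62 on d6. The d6 arrays lay above all earlier ones in each line. The rise was 4.73-fold in Cl19 (2.24, SE 0.23, adjusted p = 1.34e-07) and 3.58-fold in 3c3 (1.84, adjusted p = 2.64e-06), and the difference of 0.40 had an adjusted p of 0.505.

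*Adam15*, an ADAM with an integrin-binding motif that is known from vascular cells, fell. Cl19 read 10.76, 10.71 and 10.94 on d0 and 8.15, 9.28 and 8.50 on d6, and 3c3 read 11.99, 11.56 and 11.92 on d0 and 11.32, 10.27 and 10.61 on d6. The groups of a line did not overlap. The fall was 4.46-fold in Cl19 (−2.16, SE 0.32, adjusted p = 1.43e-05) and 2.12-fold in 3c3 (−1.09, adjusted p = 0.00928, or 0.0927 without the slide of 3c3 replicate 3).

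*Adam33*, known from airway smooth muscle and mesenchyme, was lowest on d6. In Cl19 it read 5.91, 5.55 and 5.42 on d0, 3.95, 3.66 and 4.10 on d2, and 1.53, 2.19 and 1.54 on d6, where 1 of 3 arrays was well above background. The 3c3 arrays read 4.46, 4.15 and 4.78 on d0 and 3.24, 2.58 and 0.28 on d6, where 2 of 3 were. No d6 array overlapped d0. The difference was −3.87 (SE 0.60, adjusted p = 2.03e-05) in Cl19 and −2.43 (adjusted p = 0.00238) in 3c3, where it was −1.40 with an adjusted p of 0.0664 without the slide of replicate 3. The d2 fall in Cl19 had an adjusted p of 0.0446, and of 0.0731 without the doubted array.

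*Adam17*, a sheddase that releases TNF and EGF-receptor ligands, read 9.15, 8.93 and 9.02 on d0 and 8.88, 8.80 and 8.85 on d6 in Cl19. Arrays of 3c3 read 8.91, 8.91 and 8.95 on d0 and 9.10, 9.57 and 9.61 on d6. The d6 arrays of 3c3 lay above d0 and those of Cl19 below. It rose 1.42-fold in 3c3 (0.50, SE 0.14, adjusted p = 0.00647, or 0.0756 without the slide of replicate 3) and differed by −0.19 in Cl19 (adjusted p = 0.292). *Adam10*, a sheddase of Notch and cadherins, fell by 1.38 in Cl19 (adjusted p = 2.18e-05) and by 0.66 in 3c3 (adjusted p = 0.0161), the second no longer past the threshold without that slide.

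*Adam19*, a sheddase of neuregulin, rose by d2 in both lines and was still higher on d6 in 3c3. It read 6.43, 6.61 and 6.47 on d0, 7.76, 7.61 and 7.18 on d2, and 6.69, 6.77 and 6.43 on d6 in Cl19. In 3c3 the values were 6.37, 6.41 and 6.34 on d0, 7.93, 7.74 and 7.66 on d2, and 7.47, 7.56 and 7.34 on d6. On d6 the Cl19 arrays overlapped d0 and the 3c3 arrays did not. The d2 rise was 1.01 (SE 0.16, adjusted p = 0.00014) and 1.41 (adjusted p = 4.34e-06), and the d6 difference was 0.13 (adjusted p = 0.543) in Cl19 and 1.08 (2.12-fold, adjusted p = 2.26e-05) in 3c3. The changes to d6 differed by −0.95 (SE 0.23, adjusted p = 0.00633). The probe's description in the file names *Sox30*, but the other *Adam19* probe gave 0.19 and 1.63 on d6.

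*Adam23*, an ADAM with no protease activity that binds integrins and is best known from the nervous system, fell furthest of the members by d6 in Cl19. It read 8.22, 7.92 and 8.12 on d0, 4.61, 3.90 and 4.01 on d2, 3.14, 2.18 and 2.19 on d4, and 2.80, 1.90 and 2.52 on d6. Values in 3c3 were 7.86, 7.54 and 7.30 on d0, 4.57, 4.44 and 4.25 on d2, 4.23, 4.44 and 4.66 on d4, and 4.57, 4.65 and 4.64 on d6. All later arrays lay below d0, and 3c3 kept about its d2 level while Cl19 went lower. The fall by d2 was 15.1-fold in Cl19 (−3.92, SE 0.29, adjusted p = 1.53e-08) and 8.86-fold in 3c3 (−3.15, adjusted p = 2.58e-07). By d6 it was 51.4-fold in Cl19 (−5.68, adjusted p = 2.13e-11) and 7.71-fold in 3c3 (−2.95, adjusted p = 1.46e-07), a difference of −2.74 (SE 0.41, adjusted p = 9.7e-05). Of the ADAMs best known from testis and sperm, *Adam4* fell by 1.02 and 1.00 on d6, and *Adam1a* differed by 0.54 and 0.31, which did not pass.

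The procollagen N-proteinases, which trim the amino ends of fibrillar procollagens, moved apart. *Adamts3*, which also activates VEGF-C, read 4.07, 4.14 and 4.32 on d0, 7.07, 6.08 and 5.81 on d2, 7.88, 7.54 and 8.23 on d4, and 7.74, 7.10 and 7.56 on d6 in Cl19. In 3c3 it read 5.96, 5.65 and 6.30 on d0, 7.07, 6.86 and 7.40 on d2, 7.88, 8.27 and 8.42 on d4, and 8.32, 8.52 and 8.82 on d6. Later arrays lay above d0 in each line, and 3c3 was the higher line on d0 and d6. It rose 9.77-fold by d6 in Cl19 (3.29, SE 0.28, adjusted p = 1.25e-08) and 5.99-fold in 3c3 (2.58, adjusted p = 4.89e-07).

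*Adamts2*, the main procollagen I N-proteinase, read 7.48, 7.16 and 7.42 on d0, 6.14, 5.95 and 6.08 on d2, 5.36, 5.46 and 5.54 on d4, and 6.33, 6.63 and 6.64 on d6 in Cl19. The 3c3 arrays read 7.45, 7.20 and 7.45 on d0, 6.21, 6.01 and 6.35 on d2, 5.82, 5.85 and 5.87 on d4, and 5.38, 5.37 and 5.73 on d6. Every later array was below d0, with Cl19 higher on d6 than on d4. The d6 fall was 1.77-fold in Cl19 (−0.82, SE 0.14, adjusted p = 3.98e-05) and 3.66-fold in 3c3 (−1.87, adjusted p = 2.54e-09), and the changes differed by 1.05 (SE 0.19, adjusted p = 0.000573). Its second probe, which was dim, went the other way in Cl19, by 1.65 (adjusted p = 0.0297), and with both probes averaged the Cl19 difference was 0.41 (adjusted p = 0.301).

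Among the proteoglycanases *Adamts9*, which cleaves versican and aggrecan, fell in Cl19. It read 9.46, 10.12 and 9.87 on d0, 9.60, 8.66 and 8.95 on d2, 8.25, 7.88 and 7.69 on d4, and 6.91, 7.31 and 7.63 on d6 there. Arrays of 3c3 read 8.72, 8.92 and 8.20 on d0, 9.09, 9.99 and 9.31 on d2, 10.30, 10.44 and 9.95 on d4, and 9.16, 9.45 and 8.99 on d6. Cl19 was the higher line on d0 and the lower line on d6. The d6 difference was −2.54 in Cl19 (SE 0.28, 5.8-fold, adjusted p = 3.44e-07) and 0.59 in 3c3 (adjusted p = 0.0926, or 0.0149 with the slide as a block), and the changes differed by −3.12 (SE 0.40, adjusted p = 1.64e-05). On d2 the Cl19 difference of −0.75 (adjusted p = 0.0629) was −1.01 (adjusted p = 0.0147) without the doubted array.

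*Adamts15*, another proteoglycanase, rose on d2 by 1.89 (Cl19, adjusted p = 0.00443) and 1.77 (3c3, adjusted p = 0.00884), and on d6 its differences were 1.15 (adjusted p = 0.0386, or 0.0573 with the slide as a block) and 0.88 (adjusted p = 0.117, or 0.00563). *Adamts5*, the aggrecanase of cartilage, rose by 1.45 in Cl19 on d6 (adjusted p = 0.0267, or 0.0517 with the slide as a block), where 2 of 3 arrays were well above background. *Adamts8* read at most 3.51 on the line arrays and its d6 differences of 0.92 and 0.98 did not pass. Of the enzymes that cleave the cartilage protein COMP, *Adamts7* fell by 1.78 in Cl19 (adjusted p = 0.000361) and differed by −0.87 in 3c3 (adjusted p = 0.056, or 0.006 with the slide as a block), while *Adamts12* was below background on all line arrays, at 0.26 to 0.82.

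ADAMTS-like proteins share the ancillary domains of ADAMTS but have no protease domain, and several bind fibrillin microfibrils. *Adamtsl2* read 0.28, 0.27 and 0.25 on d0 and 4.18, 8.23 and 6.10 on d6 in Cl19, and on d6 in 3c3 it read 1.30, 0.92 and 0.41. All 3 Cl19 d6 arrays were well above background, and no other array of either line was. The rise in Cl19 was at least 14-fold (5.90, SE 0.73, adjusted p = 1.36e-06), the 3c3 difference was 0.45 (adjusted p = 0.643), and the changes differed by 5.45 (SE 1.03, adjusted p = 0.000827). Its second probe rose by 4.30 in Cl19 (adjusted p = 4.83e-05), with 1.33 in 3c3 and a difference between them of 2.97 (adjusted p = 0.0507).

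*Adamtsl3* fell in 3c3, where it read 3.99, 3.62 and 3.11 on d0, 1.82, 2.01 and 1.60 on d2, and 0.25, 0.25 and 0.26 on d6. On d0, 2 of 3 of these arrays were well above background and on d2, d4 and d6 none was, so the fall was at least 1.68-fold (−3.32, SE 0.50, adjusted p = 2.04e-05). In Cl19 it read 1.95, 1.64 and 2.54 on d0 and 0.27, 1.12 and 1.47 on d6, a difference of −1.09 (adjusted p = 0.0739, or 0.0209 with the slide as a block). The changes differed by 2.23 (SE 0.70, adjusted p = 0.0332). That difference did not pass with scaling by the 75th percentile (2.02, adjusted p = 0.25). Nor did it in the authors' log2 table, which is not normalized between arrays (2.04, adjusted p = 0.24).

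The other ADAMTS-like members rose in both lines. *Adamtsl4*, which binds fibrillin-1, read 2.65, 2.49 and 2.57 on d0 and 4.46, 5.26 and 4.68 on d6 in Cl19, and 2.54, 1.52 and 2.13 on d0, none well above background, and 5.10, 5.26 and 5.05 on d6 in 3c3. It rose 4.7-fold in Cl19 (2.23, SE 0.28, adjusted p = 1.35e-06) and at least 5.44-fold in 3c3 (3.08, adjusted p = 4.14e-08). *Adamtsl5* read 9.79, 9.25 and 9.67 on d0 and 11.36, 11.75 and 10.47 on d6 in Cl19, and 9.23, 8.53 and 9.45 on d0 and 11.21, 11.97 and 11.98 on d6 in 3c3. Neither gene's d6 arrays overlapped d0. *Adamtsl5* rose 3.08-fold in Cl19 (1.62, SE 0.32, adjusted p = 0.000289) and 6.27-fold in 3c3 (2.65, adjusted p = 1.89e-06).

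**Figure D3:**
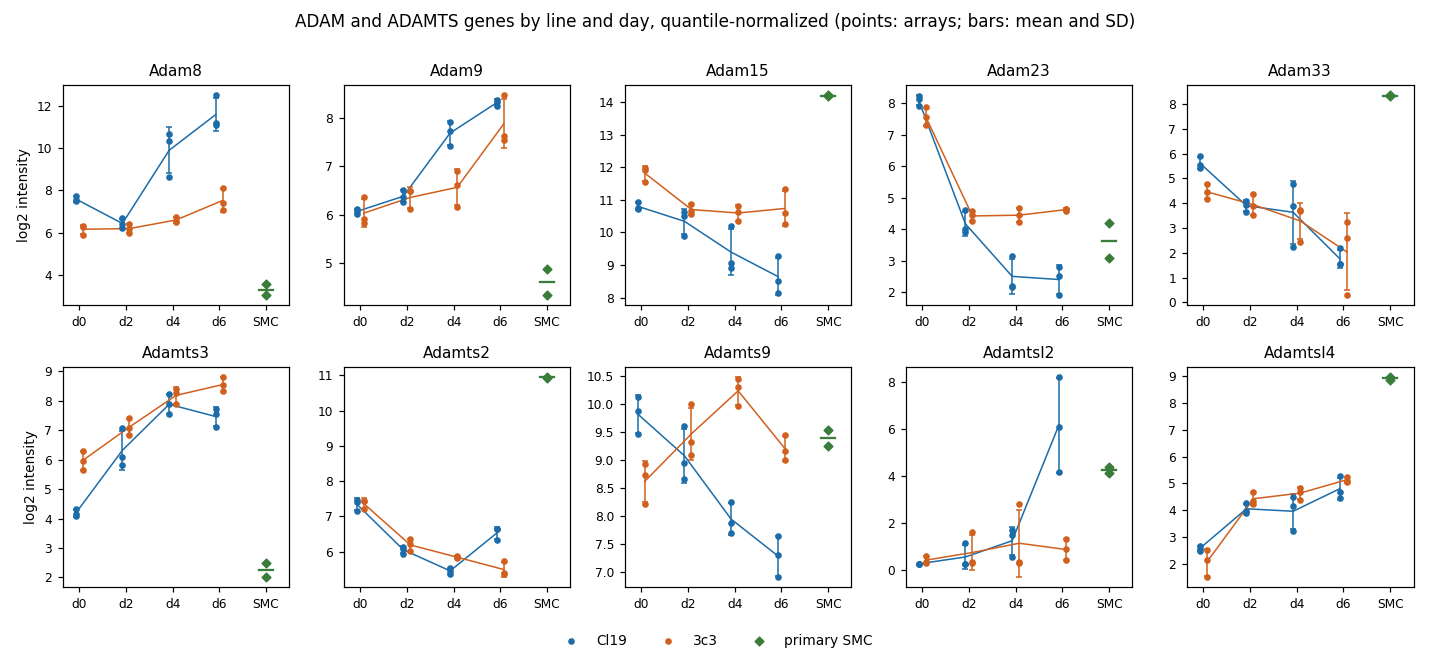
ADAM, ADAMTS and ADAMTS-like members by day in Cl19, 3c3 and primary SMC. The vertical axis of each panel is the log2 quantile-normalized intensity of 1 probe on its own scale, points are arrays, bars give the mean and SD, and lines join the means of a line. *Adam8*, *Adam9*, *Adamts3* and *Adamtsl4* end above d0 in both lines, *Adam23* and *Adam33* end below it, and *Adamts9* and *Adamtsl2* part between the lines.

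Inhibitors of these proteases gave 4 members. In Cl19, 2 rose and 2 fell by d6, and in 3c3 none rose and 1 fell, beside 52.2% and 48.2% of all probes that differed. *Timp1*, a secreted inhibitor of most MMPs that is induced by many growth factors, read 13.22, 13.08 and 13.21 on d0, 11.46, 11.71 and 11.51 on d2, 9.94, 10.83 and 10.69 on d4, and 10.74, 11.54 and 10.63 on d6 in Cl19. In 3c3 the values were 13.10, 12.64 and 12.55 on d0, 11.45, 10.91 and 11.27 on d2, 11.29, 10.49 and 11.10 on d4, and 12.18, 11.57 and 11.69 on d6. All later arrays were below d0 in each line. It fell by 1.61 on d2 in Cl19 (SE 0.27, adjusted p = 0.000182) and by 1.55 in 3c3 (adjusted p = 0.000327). On d6 the fall was 4.58-fold in Cl19 (−2.20, adjusted p = 1.11e-06) and 1.93-fold in 3c3 (−0.95, adjusted p = 0.00627). The changes to d6 differed by −1.25 (SE 0.38, adjusted p = 0.026), with an adjusted p of 0.118 without the slide of 3c3 replicate 3.

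*Timp2*, which inhibits MMPs and also bridges MT1-MMP and pro-MMP2, was near the top of the scale on all arrays. It read 16.82, 16.81 and 16.74 on d0, 16.86, 16.49 and 16.73 on d2, 16.47, 16.44 and 16.33 on d4, and 15.97, 16.07 and 16.03 on d6 in Cl19. Values in 3c3 were 16.69, 16.60 and 16.69 on d0 and 16.81, 16.82 and 16.90 on d6. Cl19 fell 1.7-fold by d6 (−0.77, SE 0.10, adjusted p = 3.26e-06), 3c3 differed by 0.19 (adjusted p = 0.142), and the changes differed by −0.95 (SE 0.14, adjusted p = 9.77e-05). No feature was saturated.

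*Timp3*, which is held in the matrix and also inhibits ADAM17, rose in Cl19. It read 8.41, 8.06 and 8.26 on d0, 8.72, 8.82 and 8.52 on d2, 9.17, 9.33 and 9.60 on d4, and 9.91, 9.80 and 9.97 on d6. In 3c3 it read 9.25, 8.70 and 8.87 on d0 and 9.76, 9.09 and 8.75 on d6, and there the groups overlapped. The rise in Cl19 was 3.13-fold (1.65, SE 0.25, adjusted p = 1.41e-05), the 3c3 difference was 0.26 (adjusted p = 0.421), and the changes differed by 1.39 (SE 0.35, adjusted p = 0.00811, or 0.0653 without the slide of 3c3 replicate 3).

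*Reck*, a lipid-anchored inhibitor of MMPs at the cell surface, read 7.38, 7.34 and 7.38 on d0, 7.45, 10.13 and 9.98 on d2, 8.85, 9.16 and 9.08 on d4, and 9.29, 8.83 and 9.96 on d6 in Cl19. The 3c3 arrays read 6.34, 6.41 and 6.64 on d0, 7.89, 7.28 and 7.54 on d2, and 7.63, 5.49 and 6.46 on d6. The low d2 value in Cl19 is that of the doubted array. *Reck* rose 3.98-fold by d6 in Cl19 (1.99, SE 0.54, adjusted p = 0.00412) and differed by 0.06 in 3c3 (adjusted p = 0.937), while the difference between these changes, 1.93, had an adjusted p of 0.0939. Its d2 rise in Cl19 was 1.82 (adjusted p = 0.019), and 2.69 (adjusted p = 9.34e-05) without the doubted array.

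*Bsg*, basigin or EMMPRIN, a surface glycoprotein that induces MMPs in neighbouring cells, rose alike in both lines. It read 14.93, 14.71 and 15.06 on d0, 14.99, 15.45 and 15.86 on d2, 16.25, 16.21 and 16.42 on d4, and 16.13, 16.15 and 16.29 on d6 in Cl19. Arrays of 3c3 read 14.61, 14.61 and 14.84 on d0, 15.02, 15.14 and 15.32 on d2, 15.66, 16.02 and 15.98 on d4, and 15.72, 16.04 and 16.09 on d6. The d6 arrays stood above d0 without overlap. The rise was 2.45-fold in Cl19 (1.29, SE 0.18, adjusted p = 4.99e-06) and 2.39-fold in 3c3 (1.26, adjusted p = 1.02e-05).

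**Figure D4:**
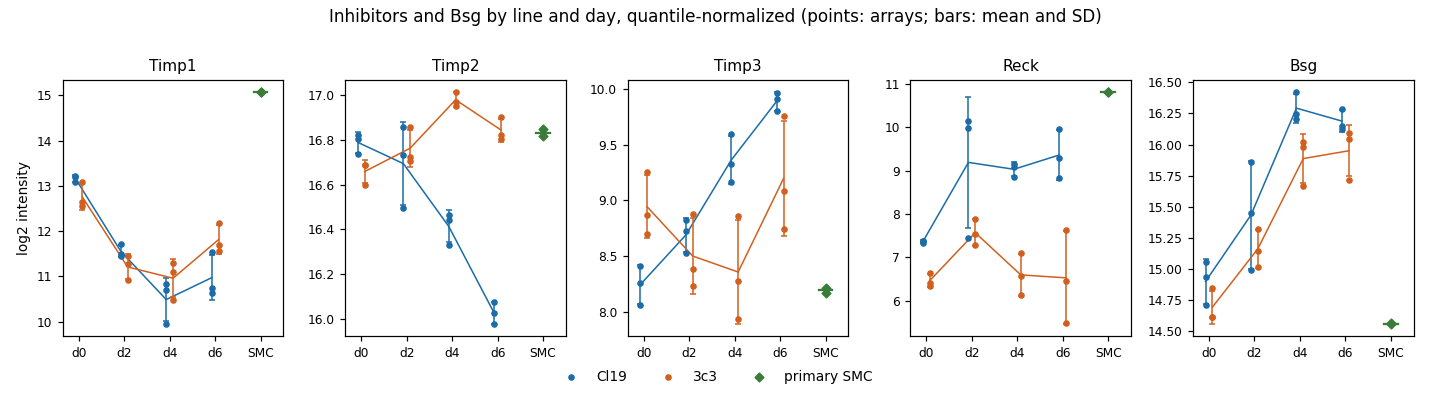
*Timp1*, *Timp2*, *Timp3*, *Reck* and *Bsg* by day in Cl19, 3c3 and primary SMC. The vertical axis of each panel is the log2 quantile-normalized intensity of 1 probe on its own scale, points are arrays, bars give the mean and SD, and lines join the means of a line. *Timp1* falls by d2 in both lines, *Timp3* rises in Cl19, and *Bsg* rises in both.

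The changes to d6 differed between the lines for 17 members (17.4% of all probes), 6 with the higher value in Cl19 (8.17%) and 11 with the higher value in 3c3 (9.27%). The 6 were *Mmp13*, *Adam8*, *Adamts2*, *Adamtsl2*, *Adamtsl3* and *Timp3*, and the 11 were *Mmp11*, *Mmp23*, *Mmp24*, *Mmp25*, *Mmp28*, *Adam17*, *Adam19*, *Adam23*, *Adamts9*, *Timp1* and *Timp2*. Without the slide of 3c3 replicate 3, 13 members differed, with *Mmp13*, *Mmp25*, *Adam17*, *Timp1* and *Timp3* lost and *Adam33* gained. The fibroblast markers moved in the same samples: 4 of 6 rose and 1 fell in Cl19 by d6 and 1 rose and 1 fell in 3c3, and the log2 of their summed signal went from 12.28 to 12.43 up to 13.23 to 13.90 in Cl19 and from 12.15 to 12.35 down to 10.60 to 11.73 in 3c3. *Lum*, which encodes the matrix proteoglycan lumican, rose at least 39.6-fold in Cl19. The part of these markers in the line differences was not tested.

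Some of these genes differed between the lines before differentiation. On d0, 6 members differed (3.07% of all probes). *Mmp11* (by 1.78, adjusted p = 5e-05), *Mmp23* (1.65, adjusted p = 0.000484), *Mmp24* (1.22, adjusted p = 0.0231), *Mmp28* (1.51, adjusted p = 0.0178) and *Adamts9* (1.21, adjusted p = 0.0191) were the 5 higher in Cl19 (2.00%), and *Adamts3* (−1.79, adjusted p = 0.000915) was the 1 higher in 3c3 (1.08%). Without the slide of 3c3 replicate 3, *Mmp24*, *Mmp28* and *Adamts9* no longer passed. Line and scan day cannot be told apart in these 6 differences.

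Primary SMCs were set against d6 of each line. *Adam33*, *Adam15* and *Timp1* were higher in primary SMCs than in both lines, and *Mmp24*, *Adam8*, *Adamts3*, *Mmp15* and *Mmp25* were lower. Of 39 members 34 differed from Cl19 d6 (71.4% of all probes), 19 higher in primary SMC (32.8%) and 15 lower (38.6%). From 3c3 d6, 34 differed (71.5%), 18 higher (33.4%) and 16 lower (38.1%). The members *Adamts5*, *Adamts8*, *Adamts12*, *Adamtsl3* and *Mmp19* passed the background filter through the primary arrays alone. Their excess in primary SMC was thus largely set by the filter and is no support. That of *Adamts5* over Cl19 d6 did not pass in the authors' log2 table (1.35, adjusted p = 0.17). Among members well above background on all arrays of both groups, 16 of 21 differed from Cl19 (70.9% of all such probes) and 15 of 19 from 3c3 (70.5%). Primary and line arrays had different slides and scan days, which cannot be told apart from the cells, and both comparisons share the 2 primary arrays. The bought RNA was run in duplicate, and the labels do not say whether the 2 arrays came from separate preparations. Their median probe SD was 0.08, beside 0.18 to 0.32 in the line groups. The p-values of these comparisons therefore do not measure the spread between preparations of SMCs. The scaling matters here: in the authors' log2 table, which is not normalized between arrays, the median of all probes shifts by −2.04 against Cl19 d6 and −1.96 against 3c3 d6, and the members then split into 13 higher and 21 lower against Cl19 and 13 higher and 20 lower against 3c3. The share of higher calls over all probes goes from 45.9 to 8.3% and from 46.7 to 9.5%.

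Several members high in primary SMCs were dim in both lines. *Adamts12*, *Mmp19* and *Adamts8* passed the background filter through the primary arrays alone, so their excess over the lines follows from the filter. *Adamts12* read 8.96 and 8.81 in primary SMC and was at least 124-fold higher than in Cl19 d6 and at least 66.8-fold higher than in 3c3 d6. *Mmp19* read 8.44 and 8.37 and was at least 89.1-fold and at least 47.9-fold higher. *Adamts8*, at 8.46 and 8.47, stood 6.62 above Cl19 d6, where 1 of 3 arrays was well above background, and was at least 48.9-fold higher than in 3c3 d6.

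Other members were lower in the lines on d6 than on d0 and higher in primary SMCs. *Adam33* read 8.33 and 8.36 in primary SMC, above all line arrays of any day, and 6.59 above Cl19 d6 (adjusted p = 3.78e-08) and 6.31 above 3c3 d6, where 1 and 2 of 3 arrays were well above background. *Adam15* read 14.21 and 14.17, and was 46.7-fold and 11-fold higher. *Adamts2* read 10.96 and 10.94, 21.4-fold and 43.9-fold above the d6 groups. *Timp1* read 15.08 on both arrays, 17.2-fold above Cl19 d6 (4.11, adjusted p = 2.59e-10) and 9.62-fold above 3c3 d6 (3.27, adjusted p = 7.55e-09). All 4 lay above every line array, and all 4 were higher under each of the scalings tried.

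Of the members that rose in both lines, primary SMCs were higher for *Mmp23* (13.84 and 13.87, by 4.56 and 3.20) and *Adamtsl4* (8.97 and 8.87, by 4.12 and 3.78). *Mmp14* read 12.07 on both primary arrays, a little below the 3 Cl19 d6 arrays (−0.51, adjusted p = 0.367) and above 3c3 d6 (1.30, adjusted p = 0.0243, but −0.64 in the table without normalization). Both *Mmp2* probes were higher in primary SMC, the brighter at 8.19 and 8.05 (by 3.43 and 3.28) and the second at 12.67 and 12.63 (by 4.93 and 9.57). *Mmp16* read 7.06 and 7.21, higher by 4.39 and 3.50, or by 1.93 and 1.20 in the table without normalization, where the second did not pass (adjusted p = 0.157). The other *Mmp16* probe read 8.32 and 8.44, higher by 8.11 (adjusted p = 3.23e-07) and 8.08 (adjusted p = 3.26e-07). It was well above background on no d0 or d6 array of the lines. *Reck*, at 10.80 and 10.82, was 19.5-fold above 3c3 d6 (4.28, adjusted p = 2.99e-06) and 1.45 above Cl19 d6 (adjusted p = 0.038), where the table without normalization gave −0.76.

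Lower in primary SMCs were several of the genes that rose during differentiation. *Adam8* read 3.56 and 3.03, not well above background, at least 226-fold below Cl19 d6 and at least 13.5-fold below 3c3 d6. *Mmp24* read 4.28 and 5.09, 66.9-fold below Cl19 d6 (−6.06, adjusted p = 3.02e-12) and 209-fold below 3c3 d6 (−7.71, adjusted p = 6.99e-14). *Adamts3* (2.02 and 2.49) was at least 12.9-fold and at least 27.5-fold lower.

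*Mmp15*, at 3.21 and 3.30, was at least 8.61-fold lower than Cl19 d6 and at least 4.97-fold lower than 3c3 d6, and *Mmp25*, at 3.74 and 3.18, at least 5.11-fold and at least 13.3-fold lower. *Mmp13*, at 0.58 and 3.35, was not well above background, and was at least 7.64-fold below Cl19 d6. *Adam9* was 12.9-fold and 9.57-fold lower, *Adam17* 7.6-fold and 11.4-fold, and *Adam10* (0.39 and 0.41, not well above background) at least 2.41-fold and at least 3.34-fold. *Adam1a* was at least 33.1-fold and at least 27.7-fold lower, whereas for *Adam4* the used probe was lower by 3.67 and 3.34 and the other probe differed by 0.12 and 0.69, neither past the threshold.

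The remaining named members lay closer to the lines or differed from one line more than from the other. *Adamtsl3* (6.52 and 6.64), which passed the filter through the primary arrays alone, was at least 25-fold above Cl19 d6 and at least 13.5-fold above 3c3 d6. *Adamtsl2* (4.37 and 4.15) was at least 2.71-fold above 3c3 d6 and differed from Cl19 d6 by −1.91 with overlapping arrays (adjusted p = 0.0432). The first did not pass with normexp background correction (0.35, adjusted p = 0.355) or in the table without normalization (1.08, adjusted p = 0.334). The second did not pass with scaling by the 75th percentile (adjusted p = 0.15). The other *Adamtsl2* probe, well above background on neither primary array, gave 0.15 against 3c3 d6 (adjusted p = 0.872) and −3.20 against Cl19 d6 (adjusted p = 0.00153). *Adamts9* (9.24 and 9.53) was 2.10 above Cl19 d6 (adjusted p = 6.55e-06, but −0.35 in the table without normalization) and differed from 3c3 d6 by 0.18 (adjusted p = 0.613). *Mmp28* (6.38 and 6.12) was 7.94-fold below 3c3 d6 (−2.99, adjusted p = 1.03e-06) and differed from Cl19 d6 by −0.69 (adjusted p = 0.121). *Adam23* (4.18 and 3.09) was 1.23 above Cl19 d6 (−0.72 in the table without normalization) and 0.99 below 3c3 d6 (adjusted p = 0.0111, or 0.115 with scaling by the 75th percentile). *Adam19* was lower by 0.95 and 1.77, while its other probe gave 0.18 (adjusted p = 0.461) and −0.76. *Mmp11* and *Adamtsl5* differed by −0.47 and −0.31 from Cl19 d6 and by −0.06 and −0.84 from 3c3 d6, of which the last passed (adjusted p = 0.0443, lost without the slide of 3c3 replicate 3).

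Among the inhibitors, *Timp3* read 8.17 and 8.22 in primary SMC, lower than Cl19 d6 by 1.70 (adjusted p = 1.83e-05) and than 3c3 d6 by 1.01 (adjusted p = 0.00309). *Timp2*, at 16.82 and 16.85, was higher than Cl19 d6 by 0.81 and differed from 3c3 d6 by −0.01, or by 1.84 with scaling by the 75th percentile. *Bsg*, at 14.56 and 14.55, was lower by 1.63 and 1.39, or by 0.51 and 0.27 with scaling by the 75th percentile, where the second did not pass (adjusted p = 0.216). Of 4 epithelial markers measured, *Cdh1* and *Krt19* were well above background on neither primary array and *Krt8* and *Krt18* on both. All 4 rose by d6 in both lines. The log2 of their summed signal was 17.01 to 17.11 on d0 and 17.89 to 17.98 on d6 in Cl19, and 17.04 to 17.14 and 17.75 to 17.84 in 3c3. In primary SMC it was 10.49 to 10.55, and the part of these markers in the differences was not tested.

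**Figure D5:**
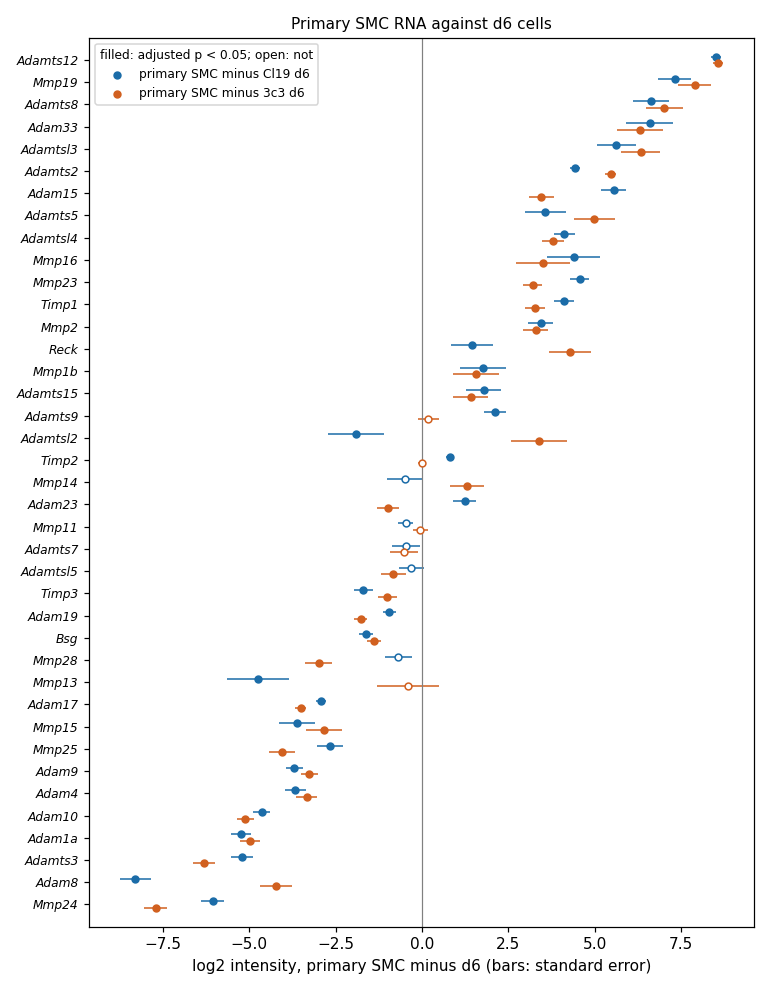
Primary SMC minus d6 of Cl19 and of 3c3 for the 39 members. The horizontal axis is the log2 difference, points are estimates with their SE as bars (2 arrays against 3), and filled points have an adjusted p below 0.05. *Adamts12*, *Adamts8*, *Mmp19* and *Adam33* lie far to the right of 0 in both comparisons, and *Mmp24* and *Adam8* far to the left. Of these, *Adamts12*, *Adamts8* and *Mmp19* passed the background filter through the primary arrays alone, so their place follows from the filter.

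The 34 genes left out by the background filter included 22 that were well above background on no array, among them *Mmp3*, *Mmp10*, *Mmp17* and *Adamts1*. Just outside the filter, with 2 of the 3 arrays of a group well above background, were *Mmp12*, *Adam32*, *Adamts4* and *Timp4*. *Mmp12*, macrophage elastase, read 1.32, 7.55 and 6.57 on d4 in 3c3. *Adam32* read 3.61, 3.09 and 2.95 on d0 in 3c3, *Adamts4*, an aggrecanase, 2.73, 4.07 and 2.74 on d6 in Cl19, and *Timp4* 2.15, 2.73 and 2.49 on d0 in Cl19. Just inside, *Adamts5* read 5.17 and 5.19 and *Adamtsl3* 6.52 and 6.64 on the primary arrays, the one group in which each passed.

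Genes that act with these proteases were followed in 3 lists, covering 50 measured genes, of which 40 differed by d6 in Cl19 (28 higher, 12 lower) and 23 in 3c3 (21 higher, 2 lower), beside 52.2% and 48.2% of all probes. Over all probes 22.0% rose and 30.3% fell in Cl19, and 19.7% rose and 28.6% fell in 3c3, and the counts of each list stand beside these shares. The list of activation and clearance, which holds plasminogen activators, serpins and proprotein convertases, had 15 of 16 genes measured. In it 13 rose and none fell in Cl19, with a median difference of 2.90 beside −0.20 over all probes, and 7 rose and 1 fell in 3c3, with a median of 1.05 beside −0.21. *Plau*, urokinase, was well above background on no d0 array and no primary array and rose at least 124-fold in Cl19 (adjusted p = 1.19e-13) and at least 179-fold in 3c3 (adjusted p = 4.47e-14). *Plat*, tissue plasminogen activator, rose by 6.97 (adjusted p = 6.93e-10) and 6.59 (adjusted p = 2.67e-09). *Serpine2*, protease nexin-1, rose by 2.48 in Cl19 and fell by 2.62 in 3c3, and the changes differed by 5.10 (adjusted p = 1.58e-05).

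The shedding list, of ADAM substrates and partners, had 19 of 22 genes measured. In Cl19 10 rose and 6 fell, with a median of 1.20, and in 3c3 11 rose and 1 fell, with a median of 1.54. *Areg*, amphiregulin, an EGF-receptor ligand released by ADAM17, rose by 3.44 (Cl19, adjusted p = 2.36e-06) and 7.77 (3c3, adjusted p = 1.1e-10), a difference of −4.33 (adjusted p = 6.59e-05). *Tnf*, the first known substrate of ADAM17, was below background on d0 and rose at least 8.87-fold in Cl19, and at least 1.91-fold in 3c3, where 2 of 3 d6 arrays were well above background. *Tspan5*, a tetraspanin that binds ADAM10, rose by 5.11 and 4.11.

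The matrix list, of substrates of the secreted enzymes, had 16 of 18 genes measured, of which 5 rose and 6 fell in Cl19, and 3 rose and none fell in 3c3, with medians of −0.14 and 0.05. *Col1a1*, a procollagen that ADAMTS2 and ADAMTS3 trim, rose by 7.27 (Cl19, adjusted p = 5.07e-09) and 3.53 (3c3, adjusted p = 5.58e-05), a difference of 3.74 (adjusted p = 0.00291). *Fn1*, fibronectin, rose by 6.28 and 4.15, and *Comp*, the substrate of ADAMTS7 and ADAMTS12, by 2.08 (adjusted p = 2.75e-08) and 1.93 (adjusted p = 1.24e-07).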

How the data were processed

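RNA of 26 samples (rMAPC lines Cl19 and 3c3 on d0, d2, d4 and d6 with 3 arrays each, and primary SMCs with 2) was hybridized by the authors to 1-colour Cy3 Agilent Whole Rat Genome arrays. The authors deposited the processed intensity of each feature from Agilent Feature Extraction 10.1.1.1, background-corrected by the software, and a log2 table of the same values without normalization between arrays. Here log2 intensities were quantile-normalized, averaged per probe (41012 probes) and fitted with limma 3.58.1 in R 4.3.3 over 9 groups, with Benjamini-Hochberg adjustment over the 24442 probes that every array of some group showed well above background. The study's own selection algorithm was not used. Alternatives were scaling by the 75th percentile, normexp (offset 50), no filter, the deposited log2 table, the mean over a gene's probes, slide as a replicate block, the methods' t-test and leaving out arrays.

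Named genes were the 20 members with the largest d6 change, all inhibitors and *Bsg*, the 5 most different in primary SMCs and those whose change differed between the lines. Members and lists were chosen with earlier results of these data known, and 1 gene of the lists is not reported here by name. Arrays that shared a number within a line shared a slide in the scanner files, and their deviations correlated above 0.1 in 18 of 18 pairs in 3c3 (lowest 0.20) and 16 of 18 in Cl19 (lowest 0.06). A fold is "at least" where the dimmer group had no array well above background, taking the lowest signal well above background as its bound. The number of arrays limits the precision.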

Additional observations from a re-analysis of the deposited data

Results flagged for a closer look

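A change from d0 to d6 that differed between Cl19 and 3c3 by limma's test of that difference was found for 17 members, given as the Cl19 change minus the 3c3 change on the log2 scale. The MMPs were *Mmp11* (−1.36), *Mmp13* (4.09), *Mmp23* (−3.0), *Mmp24* (−2.86), *Mmp25* (−1.67) and *Mmp28* (−3.81). The ADAMs were *Adam8* (2.63), *Adam17* (−0.69), *Adam19* (−0.95) and *Adam23* (−2.74). The ADAMTS and ADAMTS-like genes were *Adamts2* (1.05), *Adamts9* (−3.12), *Adamtsl2* (5.45) and *Adamtsl3* (2.23). The inhibitors were *Timp1* (−1.25), *Timp2* (−0.95) and *Timp3* (1.39). Each line is 1 clone scanned on its own day, and the changes themselves lie within slides. Of these differences, that of *Adamtsl3* did not pass under some other scalings, and that of *Mmp11* did not pass with normexp background correction.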

How the results depend on the processing

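Of 194 alternative counts, 190 stayed within 1.5 times the main count. The exceptions concerned the lines on d0, where 6 members differed, but 3 without the slide of 3c3 replicate 3 and 15 with the methods' t-test before adjustment. Leaving out 1 array at a time gave 3 to 6 members there, with 3 without Cl19 d0 replicate 2 or 3. It gave 10 to 14 in Cl19 and 15 to 18 in 3c3 on d2, 25 to 29 and 22 to 26 on d6, 14 to 18 for the difference between lines, and 30 to 33 and 29 to 33 against primary SMC. The pathway lists gave 39 to 40 and 21 to 24. With slide as a replicate block, 15 and 21 members differed on d2 and 28 and 28 on d6 in Cl19 and 3c3, and 20 between the lines, while the pathway lists gave 40 and 29. The share of all probes past the threshold is not given with the block or with the t-test before adjustment. The counts from either are therefore not read as particular to the members. On d6 the block lost *Adamts5*, *Adamts15* and *Mmp28* and gained *Adamtsl3*, *Mmp1b* and *Mmp2* in Cl19, and in 3c3 it gained *Adamts7*, *Adamts9*, *Adamts15* and *Mmp1b*. For the d6 changes of the 30 named genes, 886 alternatives kept direction and call, 26 lost the call, 17 gained it and 1 reversed: *Adamts2* in Cl19, at 0.41 with its probes averaged. That average takes in the second *Adamts2* probe, which differed by 1.65 in Cl19, against −0.82 for the probe used. Why the probes differ was not tested. The authors' table shifts the median of all probes by 0.30 on d6 in both lines, and the share of higher calls over all probes goes from 42.1 to 55.7% in Cl19 and from 40.7 to 56.4% in 3c3 on d6, and from 49.3 to 64.9% and 51.4 to 78.1% on d2. The members then split into 21 higher and 10 lower (Cl19) and 18 higher and 7 lower (3c3) on d6, and 11 and 5, and 16 and 4, on d2. Normexp shrinks differences of dim genes, for example *Mmp13* in Cl19 from 5.78 to 1.45. Levels below background limit *Mmp13*, *Adamtsl2*, *Mmp19* and *Adamts12* to bounds.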
